A study of Mus musculus with 38 samples.

Results

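The genomic signal of LAP2B was followed through the naive-to-primed transition in QKO cells, mouse embryonic stem cells that lack all lamins and the lamin B receptor LBR. The samples were chosen by their labels: 3 QKO naive libraries and 3 QKO EpiLC libraries, 6 of the 38 samples of the series. LAP2B, an inner nuclear membrane protein made from the gene Tmpo, was mapped by CUT&RUN, in which a nuclease held by an antibody cuts out DNA near the antibody's target. Naive cells were grown in N2B27 medium with LIF, 3 µM CHIR-99021 and 1 µM PD0325901, and epiblast-like cells (EpiLCs) in N2B27 with 20 ng/mL FGF and 12 ng/mL activin A, and 200000 cells were collected per library at 48 h in either state. The same measurement was made in wild-type cells (WT), in lamin triple knockouts (TKO) and in LBR knockouts (LBRKO), with 3 libraries for each genotype and state, and LMNB1 (lamin B1) and a non-specific antibody (IGG) were profiled in WT cells at both stages. The QKO cells are a single clone made by cutting Lbr in TKO cells, so no second QKO line stands behind these values. WT and TKO are littermate lines. By karyotype the TKO parent carried an extra autosome and had lost the Y chromosome in a part of its cells, and a minority of WT cells had lost or gained chromosomes as well. Nothing in the labels says that replicates are separate differentiations, so the p-values given here measure the spread between libraries only.

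In most cells, long stretches of the genome that are poor in genes, low in GC and often rich in LINE elements lie against the nuclear lamina, the protein mesh under the inner nuclear membrane. Lamins build this mesh, LBR tethers heterochromatin to the membrane, and LAP2B sits in the same membrane and binds chromatin and lamins. Naive cells resemble the epiblast before implantation and EpiLCs the epiblast just after it, a step at which naive transcription factors are switched off and primed genes such as Fgf5 are switched on. A CUT&RUN value counts DNA fragments released near LAP2B. It says nothing of a gene's transcript, and a change can mean more cells with the contact or more contact per cell, which cannot be told apart in bulk samples. The study reports that few QKO cells survived EpiLC culture relative to WT, so the QKO EpiLC libraries come from surviving cells. A change in which cells are present cannot be told apart from a change within cells. No transcripts were measured in these libraries, so marker genes could not check the stages here. In other assays, the study reports that surviving EpiLCs of each genotype expressed Otx2 and lowered Nanog. Its RNA-seq had mutant EpiLCs silence naive genes and switch on primed ones, while QKO EpiLCs also expressed genes of other lineages. The study did not rely on LAP2B as a proxy for lamina contact in EpiLCs. Its signal in WT EpiLCs fell both inside and outside the regions mapped by LMNB1. EpiLC values, those of WT included, are therefore LAP2B signal and not a measure of lamina contact.

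Each value covers the whole gene body, exons and introns together, and is taken to add up all touched bins of 1 kb, which was inferred from the values. It is given on the relative scale unless stated, where a library is divided by its median gene so that a typical gene has a value of 1, which removes the difference in total signal between libraries. The spike-in scale keeps the deposited values, RPKM scaled by a factor from yeast DNA added to each sample. RPKM is already divided by read depth, so these values are no direct measure of the DNA released. A change is EpiLC minus naive on the log2 scale after a pseudocount of 0.1 of the median, and understates the change of low genes. The gene values of a QKO library stood for 22809969 to 36816402 reads, with 68 to 114 at the median gene. Library profiles correlated within a stage (Spearman's rho across 70312 genes, 0.896 to 0.907 among naive and 0.799 to 0.829 among EpiLC libraries) and at 0.755 to 0.808 between stages, which overlaps the EpiLC range. Genes are not independent in these correlations.

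The sequence before the start of 6 genes is shown because the direction of the LAP2B change varied with base composition over all genes (given after the sequences). Mylpf, Hspb8 and Manbal had the 3 largest falls under the naming rule, and Fgf5, Dbx2 and Or5ak22 were among the 12 largest rises. The 300 bases just upstream of each annotated gene start are printed 5′ to 3′ on the gene's own strand (genome GRCm39, gene starts of GENCODE M39), with each CG dinucleotide in capitals.
Mylpf (chr7:126806907-126807206, plus strand): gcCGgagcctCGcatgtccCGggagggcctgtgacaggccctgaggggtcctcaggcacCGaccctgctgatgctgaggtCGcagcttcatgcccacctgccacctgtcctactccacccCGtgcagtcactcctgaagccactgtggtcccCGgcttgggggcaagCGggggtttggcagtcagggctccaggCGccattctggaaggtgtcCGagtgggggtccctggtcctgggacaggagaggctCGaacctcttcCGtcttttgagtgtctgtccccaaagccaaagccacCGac
Hspb8 (chr5:116561085-116561384, minus strand): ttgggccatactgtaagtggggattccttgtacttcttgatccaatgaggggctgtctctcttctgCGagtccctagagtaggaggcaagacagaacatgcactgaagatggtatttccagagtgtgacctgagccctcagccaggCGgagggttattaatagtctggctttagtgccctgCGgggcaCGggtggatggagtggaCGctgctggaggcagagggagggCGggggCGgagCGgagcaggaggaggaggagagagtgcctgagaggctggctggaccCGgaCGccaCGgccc
Manbal (chr2:157209204-157209503, plus strand): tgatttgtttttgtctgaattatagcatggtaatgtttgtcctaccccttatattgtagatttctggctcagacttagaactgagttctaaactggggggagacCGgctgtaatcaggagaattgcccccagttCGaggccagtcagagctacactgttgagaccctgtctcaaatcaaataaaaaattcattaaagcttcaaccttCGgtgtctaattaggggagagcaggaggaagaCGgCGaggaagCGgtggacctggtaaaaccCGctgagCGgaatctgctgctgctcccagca
Fgf5 (chr5:98401480-98401779, plus strand): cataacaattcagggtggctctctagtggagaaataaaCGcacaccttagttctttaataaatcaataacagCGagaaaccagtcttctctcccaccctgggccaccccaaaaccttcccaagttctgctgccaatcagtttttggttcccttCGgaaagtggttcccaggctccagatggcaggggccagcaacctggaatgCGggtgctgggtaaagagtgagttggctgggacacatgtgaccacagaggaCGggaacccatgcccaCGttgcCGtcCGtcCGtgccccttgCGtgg
Dbx2 (chr15:95553842-95554141, minus strand): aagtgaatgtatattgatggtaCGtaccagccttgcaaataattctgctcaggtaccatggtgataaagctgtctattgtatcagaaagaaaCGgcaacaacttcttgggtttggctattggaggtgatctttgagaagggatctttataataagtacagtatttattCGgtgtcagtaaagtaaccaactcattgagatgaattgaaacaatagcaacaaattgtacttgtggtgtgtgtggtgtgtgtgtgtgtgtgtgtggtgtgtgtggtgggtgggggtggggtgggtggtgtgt
Or5ak22 (chr2:85239814-85240113, minus strand): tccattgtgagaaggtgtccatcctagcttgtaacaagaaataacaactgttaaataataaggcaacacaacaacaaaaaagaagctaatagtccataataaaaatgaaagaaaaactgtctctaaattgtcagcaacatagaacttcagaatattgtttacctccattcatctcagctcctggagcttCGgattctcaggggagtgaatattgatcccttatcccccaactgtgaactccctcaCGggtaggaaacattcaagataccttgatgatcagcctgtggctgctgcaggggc
CG counts are the same on either strand. The window of Mylpf held 13 CG, that of Hspb8 11 and that of Manbal 8, and 27.6% of all windows of this length hold at least as many as Manbal. Dbx2 had 3 and Or5ak22 2. Fgf5, with 10, stood with the genes that fell in this respect and not with those that rose.

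Over all tested genes, the change followed the same letters. Genes with 0 or 1 CG in this window had a median change of 0.32 (15699 genes), and those with 20 or more -0.28 (6444 genes, 9.16% of windows). The share called lower (limma, adjusted p under 0.05) was 8.10% in the first class and 38.0% in the last, beside 19.9% of all genes. In WT the order was turned around, with medians of -0.27 and 0.20, and in IGG they were -0.13 and 0.09. LBRKO had 0.09 and -0.10, in the order of QKO, and TKO -0.0092 and 0.05. Among protein-coding genes alone the QKO medians were 0.38 with 0 or 1 CG and -0.22 with 20 or more. A count of letters in a window is a description and marks no binding site.

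Relative LAP2B signal changed at many genes between the stages of QKO cells, while the order of genes was largely kept (rho 0.755 to 0.808). Signal spread less across genes in EpiLCs (unevenness, defined below, 1.12 in naive and 0.68 in EpiLC libraries). A gene can thus rise or fall on the relative scale and keep its rank. A gene is called where its Benjamini-Hochberg adjusted p from limma, over all tested genes, is under 0.05, and only called changes are described as a rise or a fall. limma called 29291 of 70381 genes (41.6%), 15276 higher in EpiLCs (21.7%) and 14015 lower (19.9%), with a median change of 0.11 over all genes. The libraries of the stages did not overlap at 54.8% of genes. Among protein-coding genes 4863 of 20852 were higher (23.3%) and 6874 lower (33.0%), and among long non-coding RNA genes 8534 of 31511 were higher and 5847 lower. The balance of directions depended on the scaling: edgeR with TMM factors on recovered reads called 9987 higher and 18593 lower, so that 34.9% of calls were rises against 52.2%, with a median change of -0.05. Division by the mean gene gave 17366 and 12597. On the spike-in scale, where total signal is kept, 23223 genes were higher (33%) and 1780 lower (2.53%), 35.5% in all. The lower count there was 611 without naive replicate 1, 836 without naive replicate 3, 784 without EpiLC replicate 3 and 1113 without EpiLC replicate 2.

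The genes that gained relative signal lay in GC-poor surroundings and those that lost it in GC-rich ones. Genes were parted into 10 equal classes by the GC content of the 100 kb around them. In the class lowest in GC the median gene had a relative signal per kb of 0.0843, 0.101 and 0.0847 in naive libraries 1, 2 and 3, and 0.125, 0.125 and 0.131 in the EpiLC libraries. In the class highest in GC it had 0.539, 0.433 and 0.504, and then 0.334, 0.334 and 0.313. The libraries of the stages did not overlap in either class, and the low class moved up while the high class moved down. The median change ran from 0.40 in the first class to -0.55 in the last, with 2259 genes called higher and 121 lower of 7032 in the first and 132 and 3692 of 7031 in the last. WT cells moved the other way, from -0.47 to 0.56, and the IGG background of WT from -0.24 to 0.16, where limma called 0.487% of genes between stages. Pearson's r of the change with this GC content across 70312 genes was -0.49 in QKO and -0.12 in LBRKO. It was 0.61 in WT and 0.31 in TKO.

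**Figure D1:**
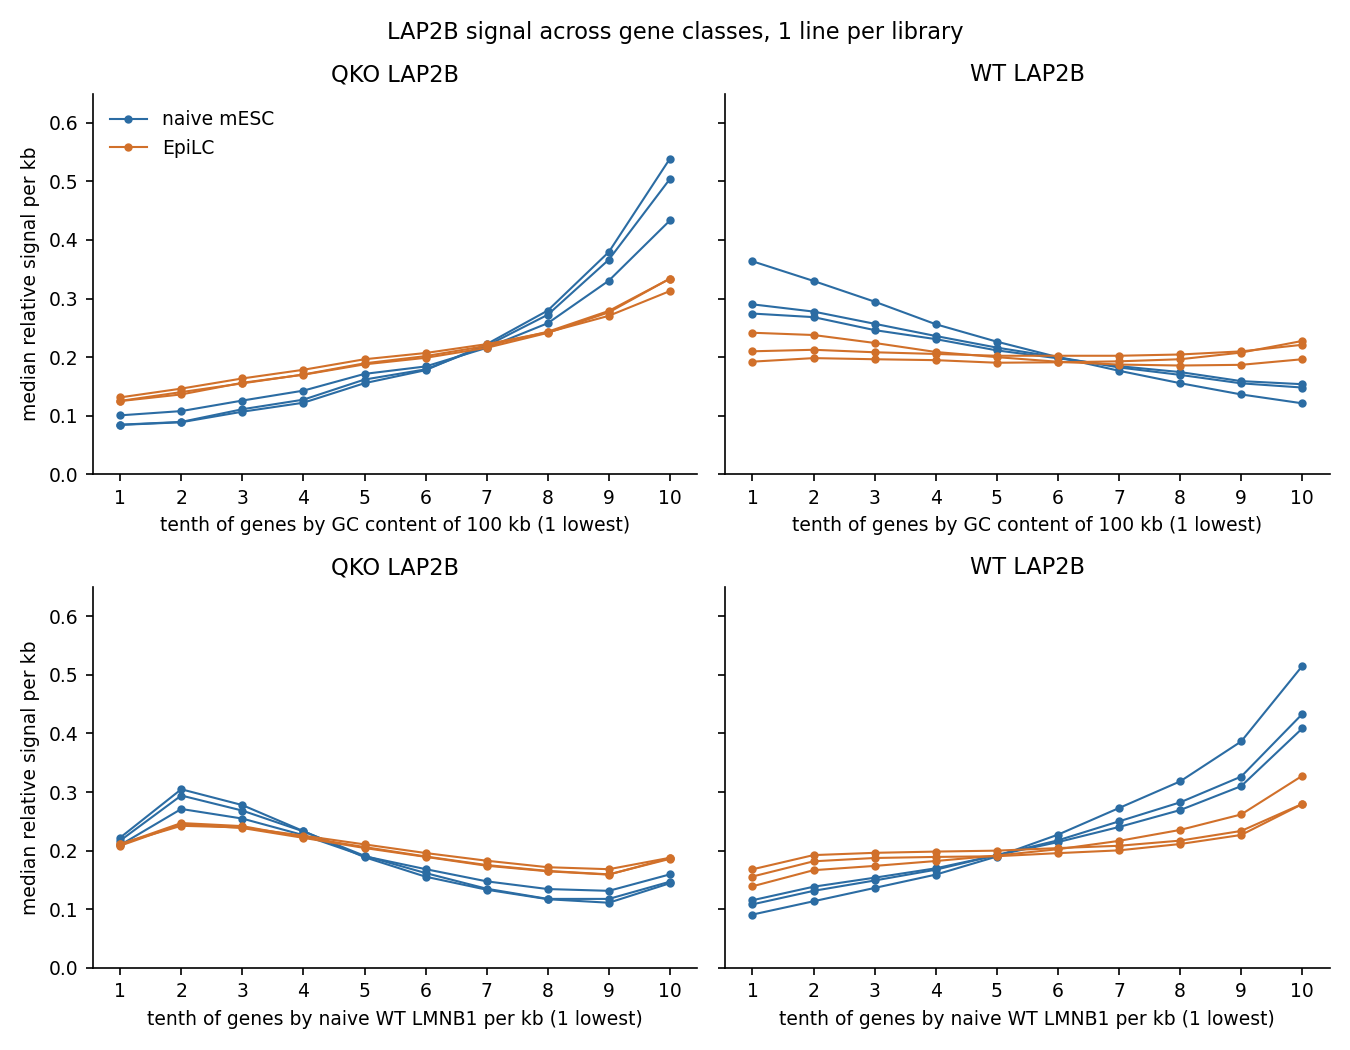
Median relative LAP2B signal per kb (y axis, from 0) in 10 classes of genes by GC content of the surrounding 100 kb (top) or by naive WT LMNB1 (bottom), 1 line per library of QKO (left) and WT (right). In the GC-rich class 10 the QKO naive lines end at 0.539, 0.433 and 0.504 and the EpiLC lines at 0.334, 0.334 and 0.313.

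Ranking genes by their LMNB1 signal in naive WT cells gave a shallower gradient. The median QKO change was -0.09 in the class with least LMNB1, -0.23 in the second class, 0.33 in the ninth and 0.24 in the class with most, where WT had 0.47, 0.43, -0.46 and -0.57. When both rankings were crossed in quartiles, the QKO change followed GC within each LMNB1 quartile: from 0.41 (lowest GC, 1256 genes) to -0.40 (highest GC, 9613 genes) where LMNB1 was lowest, and from 0.39 (10245 genes) to -0.40 (421 genes) where it was highest. Within a GC quartile it varied little with LMNB1, with -0.40, -0.43, -0.36 and -0.40 from least to most LMNB1 in the GC-richest quartile. In WT the corresponding values of that quartile were 0.55, 0.33, 0.03 and -0.27. These classes share genes and base composition, and the medians are descriptions.

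The 12 largest falls under the naming rule (genes of at least 5 kb with a proper symbol, called, without overlap of the stages, at most 1 per 500 kb) ranged from -1.82 to -2.13 on the log2 scale. Mylpf (ENSMUSG00000030672, chr7:126807207-126813470) encodes a myosin light chain of fast muscle. Its relative signal was 15.4, 12.1 and 16.2 in naive libraries 1, 2 and 3 and 3.65, 3.5 and 2.62 in EpiLC libraries 1, 2 and 3, a change of -2.13 ± 0.19 (SE), limma adjusted p = 2.99e-13. Hspb8 (ENSMUSG00000041548, chr5:116546409-116561084), a small heat shock protein gene, had 17.2, 11.9 and 16.5 and then 2.92, 3.61 and 3.95, a change of -2.08 ± 0.16 (SE), limma adjusted p = 6.91e-15. Every EpiLC library lay below every naive library at each of these genes. In WT the same genes had 1.19 ± 0.322 and 2.81 ± 0.322 in naive cells (SD, n = 3), so their high signal in QKO naive cells had no counterpart there, and their WT changes were 0.35 (limma adjusted p = 0.142) and 0.03 (0.907).

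Cd9 (ENSMUSG00000030342, chr6:125437210-125471778), a tetraspanin of the cell surface, had 38.8, 29.8 and 36.1 in the naive and 8.97, 9.16 and 9.85 in the EpiLC libraries, a change of -1.89 ± 0.12 (SE), limma adjusted p = 8.00e-18. Manbal (ENSMUSG00000063019, chr2:157209504-157241725) went from 47.2, 33.5 and 42.9 to 10.6, 10.3 and 10.8 (-1.94, adjusted p = 8.00e-18). Platr29 (ENSMUSG00000084816, chr2:165796641-165834482) and Platr32 (ENSMUSG00000085194, chr7:80708861-80716055) belong to a set of long non-coding RNAs named for their association with pluripotency, and changed by -1.93 and -1.90. Both kept their stages apart, with naive values of 32.4, 23.1 and 25.9 at Platr29 and EpiLC values of 6.42, 7.44 and 7.07. The rest of the 12 were Pramel30, a member of the Prame family (-1.88), Mllt6, which encodes a PHD finger protein (-1.88), Mlec, which encodes the endoplasmic reticulum lectin malectin (-1.83), the zinc transporter gene Slc30a2 (-1.83), Zbtb7b, a transcription factor of helper T cells (-1.83), and Capns1, the small calpain subunit (-1.82). Pramel30 has near-identical relatives, so its reads may be shared among copies and its value is uncertain. It was also the only gene of the 12 called lower in WT (-1.28, limma adjusted p = 7.35e-07).

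**Figure D2:**
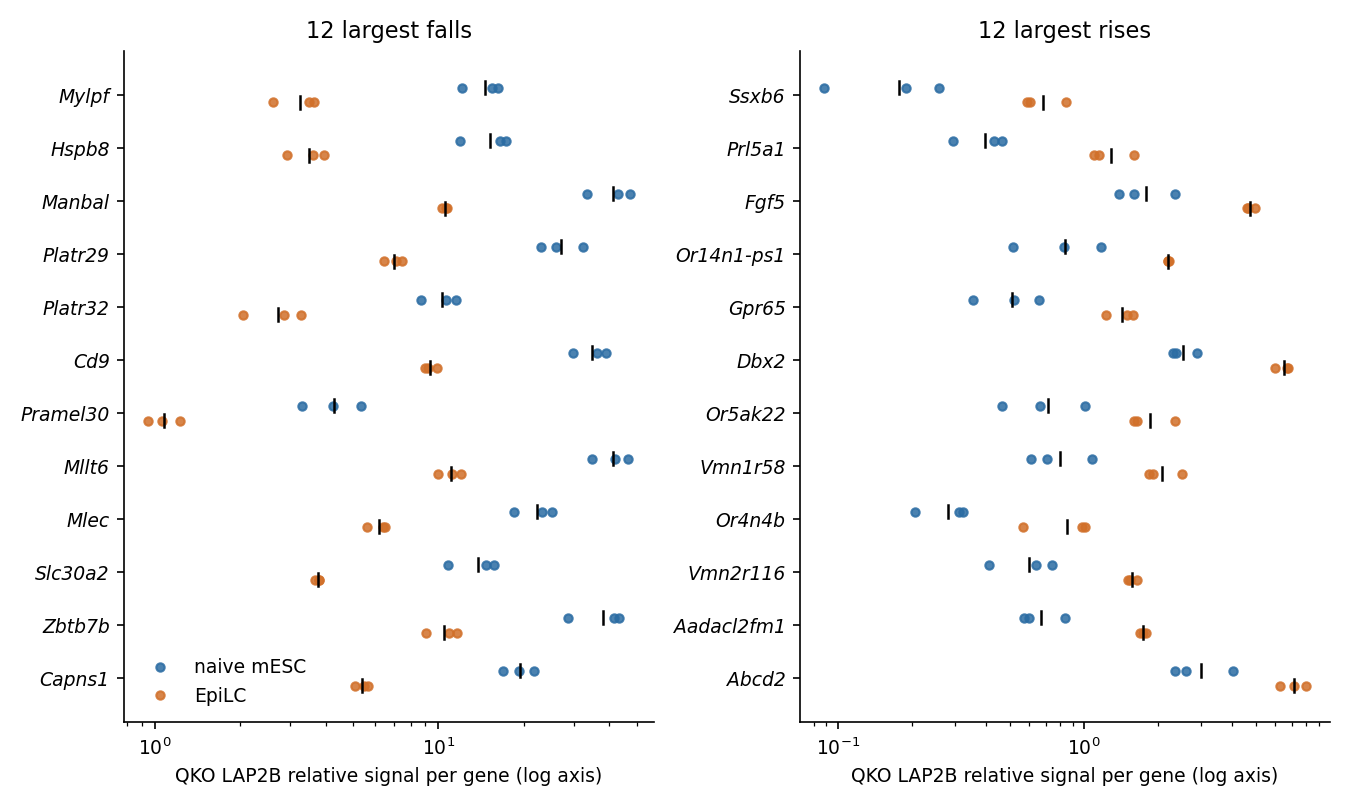
Relative LAP2B signal over the 12 genes with the largest falls (left) and rises (right) in QKO cells, on log axes, 1 point per library with a bar at the mean of each stage (n = 3). At all 24 genes the points of the stages do not overlap, as the naming rule requires.

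The 12 largest rises ranged from 1.26 to 1.52 and started from low signal. Fgf5 (ENSMUSG00000029337, chr5:98401780-98452320), a growth factor gene widely used as a marker of the primed epiblast, had 1.39, 2.35 and 1.6 in naive libraries 1, 2 and 3 and 4.62, 4.61 and 4.96 in the EpiLC libraries, a change of 1.39 ± 0.15 (SE), limma adjusted p = 1.30e-10. Its level per kb moved from percentile 2.44 to percentile 6.61 of all genes, so it stayed among the lowest at both stages. In WT IGG it stood at percentiles 4.28 and 8.34. In WT, Fgf5 changed by 0.03 (limma adjusted p = 0.887). Dbx2 (ENSMUSG00000045608, chr15:95521444-95553841), a homeobox gene of the neural tube, had 2.38, 2.90 and 2.31 and then 6.00, 6.78 and 6.67 (1.33 ± 0.15 (SE), limma adjusted p = 2.82e-10), moving from percentile 13.4 to percentile 48.6. Abcd2 (ENSMUSG00000055782, chr15:91029881-91076310), a peroxisomal fatty acid transporter gene, had 2.34, 4.04 and 2.60 and then 6.27, 7.14 and 7.97 (1.26, adjusted p = 7.15e-09).

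The other rises were at Prl5a1 of the placental prolactin family (1.48), the proton-sensing receptor gene Gpr65 (1.35), Aadacl2fm1 of the arylacetamide deacetylase family (1.27), the odorant receptors Or14n1-ps1, Or5ak22 and Or4n4b (1.36, 1.31 and 1.30), the vomeronasal receptors Vmn1r58 and Vmn2r116 (1.30 and 1.29), and Ssxb6 of the SSX family. At Or5ak22 (ENSMUSG00000075221, chr2:85229168-85239813) the naive libraries had 0.467, 1.01 and 0.662 and the EpiLC libraries 1.6, 1.64 and 2.34. Ssxb6 rested on few reads, with 6 in the lowest QKO library. Members of the Or, Vmn, Prl and SSX families have similar copies elsewhere that may take part of each other's reads, and the deposited values do not separate overlapping or antisense genes.

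Genes of the naive pluripotency network lost relative LAP2B signal in QKO cells. Of 15 genes of this list, 13 fell (86.7%, where 33.0% of protein-coding genes and 19.9% of all genes did) and none rose (limma; 14 and 0 at an unadjusted p under 0.05, 14 and 0 by edgeR), and the median change was -1.07, beside 0.11 over all genes. Tbx3, a T-box factor that sustains self-renewal, had 12.4, 8.78 and 13.1 in the naive and 3.17, 3.78 and 3.81 in the EpiLC libraries (-1.63 ± 0.17 (SE), limma adjusted p = 5.05e-11). Fgf4, the growth factor whose signal drives exit from the naive state, had 21.9, 17.5 and 20.4 and then 6.85, 7.75 and 5.25 (-1.59, adjusted p = 3.61e-14). Nanog, a homeobox factor of the naive network, had 8.41, 5.39 and 8.57 and then 3.01, 2.93 and 2.76 (-1.30, adjusted p = 8.53e-10). At these genes the stages did not overlap. Klf2 changed by -1.57, Tfcp2l1 by -1.36, Klf5 by -1.19, Tet2 by -1.07, Prdm14 by -1.07 and Esrrb by -1.03, all called. Tcl1 and Nr0b1 were not called, at -0.53 (limma adjusted p = 0.0691) and -0.36 (0.269). In WT, 2 of the 15 were called higher and 2 lower (backgrounds 15.1% and 17%, 32.1% in either direction), with a median of -0.0017, and the QKO and WT changes differed at 11 genes in the lower direction and 1 in the higher (backgrounds 21% and 24.8%). The medians of TKO and LBRKO were -0.65 and -0.52, of LMNB1 -0.12 and of IGG -0.15.

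In level per kb, the median naive pluripotency gene stood at percentile 84.3 of all genes in QKO naive libraries and 58.7 in QKO EpiLC libraries. In WT it stood at 53.9 in naive cells and 57.9 in EpiLCs. The WT IGG background had it at 72.7 in naive cells and 59.4 in EpiLCs, a move in the same direction as in QKO. On the spike-in scale, 6 of the 15 were called lower by limma, beside 2.53% of all genes, with a median of -0.53 where all genes had 0.50. The core pluripotency genes moved likewise on the relative scale: Sall4 changed by -1.14, Pou5f1 by -1.13, Utf1 by -0.93 and Lin28a by -0.37, and Sox2, at -0.49, was not called (limma adjusted p = 0.209). Of the 5, spike-in values had 1 called lower (median -0.41), beside 2.53% of all genes. In WT, 4 of these 5 genes rose, beside 15.1% of all genes, with a median of 0.86. Their rank per kb in QKO stayed high, at percentiles 95.6 and 94.9, and was high in WT IGG too, at 82.6 and 89.2.

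**Figure D3:**
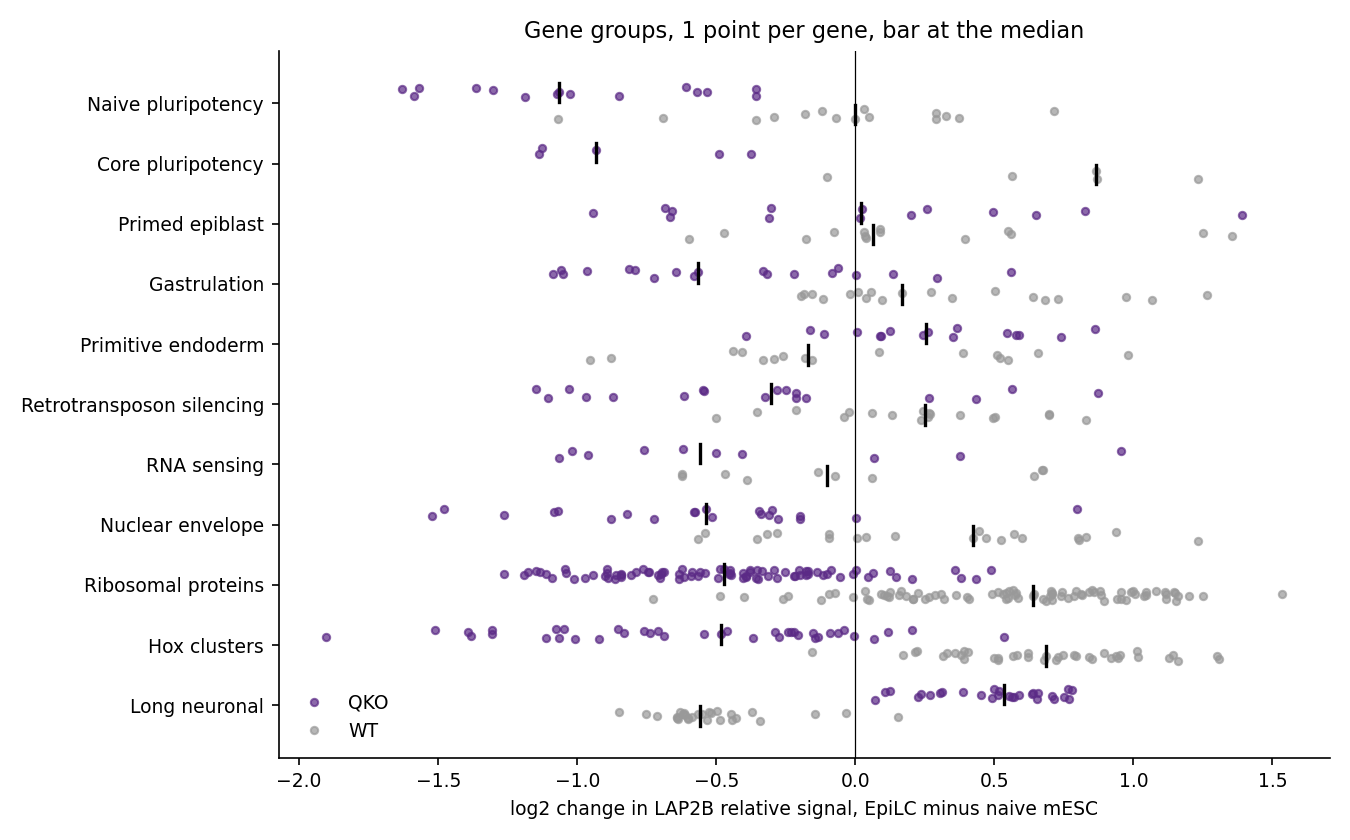
Log2 change of relative LAP2B signal from naive mESCs to EpiLCs (x axis) for the genes of 11 groups in QKO (purple) and WT (grey), 1 point per gene with a bar at the median. The naive pluripotency points of QKO all lie left of 0, and the long neuronal genes lie right of 0 in QKO and mostly left of it in WT.

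Genes switched on in the primed epiblast moved in both directions. Of 14 genes, 4 were called higher (28.6%, near the 21.7% of all genes) and 6 lower (42.9%, beside 33.0% of protein-coding and 19.9% of all genes), with a median of 0.02 (-0.16 under edgeR). With spike-in values limma called 5 higher and none lower (median 0.54), near the shares of all genes on that scale (33% and 2.53%, median 0.50). Beside Fgf5, the Wnt effector Lef1 rose by 0.83, the RNA-binding regulator Lin28b by 0.65 and the cadherin Cdh2 by 0.26. Nodal, a TGF-beta ligand of the epiblast, fell, with 8.21, 5.64 and 6.4 in the naive and 3.69, 3.49 and 3.09 in the EpiLC libraries (-0.94 ± 0.21 (SE), limma adjusted p = 3.00e-04), while in WT it rose by 1.25 (adjusted p = 1.13e-05). The zinc finger genes Zic2 (-0.69) and Zic5 (-0.66), Foxd3 (-0.67) and the DNA methyltransferases Dnmt3a (-0.30) and Dnmt3b (-0.31) fell as well. Otx2, an early regulator of the primed state, was at 0.02 (limma adjusted p = 0.941), with 4.93, 3.71 and 5.91 and then 4.62, 4.96 and 4.91, so its stages overlapped. Without naive replicate 1 or EpiLC replicate 3, 3 of the primed genes were called lower.

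Among genes of primitive endoderm, an extra-embryonic lineage, 7 of 16 rose (43.8%, where 23.3% of protein-coding genes and 21.7% of all genes did) and none fell, with a median of 0.25. At an unadjusted p under 0.05 limma had 8 and 0, and edgeR called 5 and 1. On the spike-in scale limma called 12 higher and none lower (median 0.78), beside 33% and 2.53% of all genes (median 0.50). The endocytic receptor genes Lrp2 (15.9, 21.2 and 17.4 in the naive and 31.7, 31.8 and 35.1 in the EpiLC libraries, 0.86 ± 0.10 (SE), limma adjusted p = 8.61e-10) and Cubn (0.36) rose, as did the adaptor gene Dab2 (0.59) and the basement membrane genes Col4a1 (0.74), Col4a2 (0.54), Lamb1 (0.58) and Lama1 (0.26). The lineage's transcription factors and signalling receptors did not pass the test, with 0.09 at Gata6 (limma adjusted p = 0.621), 0.24 at Gata4, -0.16 at Sox17, 0.09 at Pdgfra and 0.13 at Fgfr2. In WT 5 of the 16 rose and 7 fell, where 15.1% and 17% of all genes did, and the median change of the list in TKO was 0.45, above that of QKO. Under edgeR Gata6, Pdgfra and Fgfr2 had the opposite sign, none of them called, and with the mean gene as divisor Fgfr2 was called higher (0.18, adjusted p = 0.00827).

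Of 19 gastrulation genes 10 were called lower (52.6%, beside 33.0% of protein-coding genes) and 1 higher (median -0.56). With single QKO libraries left out the lower count was 7 to 10, and on the spike-in scale limma called 2 higher and none lower, where all genes had 33% and 2.53%. Tgfb1, a TGF-beta ligand, had 13.0, 11 and 14.4 and then 6.31, 5.70 and 5.79 (-1.09 ± 0.14 (SE), limma adjusted p = 1.54e-08), and the caudal homeobox genes Cdx1 and Cdx2 changed by -1.06 and -0.96, Tbx6 by -1.05 and Fgf8 by -0.82. The gene that rose was Wnt5a, at 0.56 (adjusted p = 0.00508), and its call was lost without EpiLC replicate 2 (adjusted p = 0.0511) and without naive replicate 1 (0.0660). Brachyury (T) and Eomes, T-box genes of mesoderm, were at 0.0038 and -0.32, not called by limma, and edgeR called Eomes lower (-0.51, adjusted p = 0.0213). In WT, 6 of the 19 rose and none fell by limma, where 15.1% and 17% of all genes did, with a median of 0.17. At an unadjusted p under 0.05 limma had 8 and 0.

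Of 18 factors that silence retrotransposons, 10 were called lower (55.6%, beside 33.0% of protein-coding and 19.9% of all genes) and 4 higher, a share of 22.2% beside the 21.7% of all genes. Spike-in values left 1 lower and 4 higher (median 0.22), where 2.53% and 33% of all genes were called on that scale. The H3K9 methyltransferase gene Setdb1 had 26.0, 19 and 24.1 in the naive and 10.1, 10.3 and 10.4 in the EpiLC libraries (-1.15 ± 0.13 (SE), limma adjusted p = 7.15e-10). Uhrf1, which guides maintenance DNA methylation, changed by -1.10, the helicase gene Mov10 by -1.03, the corepressor gene Trim28 by -0.97, the H3K9 methyltransferase gene Ehmt2 by -0.87 and Dnmt1 by -0.62. The germline genes Mael and Piwil2 rose by 0.87 and 0.56, and Pphln1 and Ehmt1 by 0.43 and 0.26. Dnmt3l, at -0.32 (adjusted p = 0.0466), lost its call without any single QKO library other than naive replicate 2. Of 10 genes that sense foreign RNA or answer to it, 6 fell (60%, beside 33.0% of protein-coding genes). Among them were the interferon regulatory factors Irf3 (-1.06) and Irf7 (-1.02) and the adaptor gene Mavs (-0.96). On the spike-in scale 3 of the 10 were higher and none lower by limma, beside 33% and 2.53% of all genes. The double-stranded RNA sensor gene Ifih1 rose, with 3.31, 3.85 and 3.71 and then 8.16, 6.33 and 6.94 (0.96, adjusted p = 1.03e-08). Ifit1 was at 0.38 (limma adjusted p = 0.145).

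Most genes of the nuclear envelope itself lost relative signal, 14 of 21 (66.7%, beside 33.0% of protein-coding genes), and 1 rose (median -0.54). The spike-in scale left 3 called lower and 1 higher, where 2.53% and 33% of all genes were. Values of the targeted genes cover the whole gene body and not the mutated site, so they check no label. Lmna had 52.0, 28.6 and 39.5 and then 15.0, 14.1 and 11.5 (-1.52 ± 0.24 (SE), limma adjusted p = 1.08e-06), and Lmnb2 20.7, 14.3 and 18.8 and then 8.30, 7.75 and 6.14 (-1.26, adjusted p = 4.45e-08). Lmnb1 changed by -0.34 (adjusted p = 0.0165), a call lost without EpiLC replicate 3 (adjusted p = 0.0761) or naive replicate 3 (0.0534). Lbr and Tmpo were not called, at -0.31 (limma adjusted p = 0.0605) and -0.28 (0.0514), and were called by edgeR (0.00285 and 0.00104). Prr14, which encodes a protein that tethers HP1-bound chromatin to the lamina, fell from 20.6, 13.5 and 20.2 to 6.81, 6.61 and 5.61 (-1.48, adjusted p = 5.86e-09), and the HP1 genes Cbx1, Cbx3 and Cbx5 changed by -1.08, -0.58 and -1.07. The exception was Syne1, a very long gene for a nesprin of the outer nuclear membrane, at 0.80 (adjusted p = 1.14e-10).

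Long neuronal genes, which lie in GC-poor lamina-associated regions in many cell types, gained signal. Of 28, 24 rose (85.7%, beside 23.3% of protein-coding and 21.7% of all genes) and none fell (limma; 25 and 0 at an unadjusted p under 0.05, 20 and 0 by edgeR), with a median of 0.54. In WT, where 17% of all genes fell, 25 fell and none rose by limma (the same counts at an unadjusted p under 0.05), with a median of -0.56. The medians of TKO and LBRKO were -0.20 and 0.19. The adhesion genes Ntm and Ctnna2 led with 0.78 and 0.77, and Ntm had 62.8, 87.6 and 70.6 in the naive and 122, 121 and 133 in the EpiLC libraries. Kcnip4, Sgcz and Cadm2, at 0.07, 0.13 and 0.22, did not pass the test. The difference between the QKO and WT changes was called at all 28. Their median rank per kb was low at both stages, at percentile 18.9 in QKO naive and 16.2 in QKO EpiLC libraries, beside 77.5 in naive WT. In WT EpiLCs it was 54.7, and in IGG of naive and EpiLC WT cells 28.8 and 20.0. The change on the spike-in scale was larger, with a median of 1.07 and all 28 called higher, beside 33% of all genes.

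Ribosomal protein genes, short and highly active in growing cells, went the other way: 35 of 85 fell (41.2%, not far above the 33.0% of protein-coding genes) and none rose. Spike-in values gave 1 called lower and 1 higher, where 2.53% and 33% of all genes were. At an unadjusted p under 0.05 limma had 42 lower and 0 higher, and edgeR called 53 lower and 0 higher. WT, where 15.1% of all genes rose, had 42 higher and none lower (54 and 1 at an unadjusted p under 0.05 in limma). Rpl23 had 5.67, 4.96 and 4.90 and then 2.27, 2.10 and 1.92 (-1.26, adjusted p = 4.81e-05). Hox genes, which pattern the body axis and are held silent by Polycomb in stem cells, also fell, 18 of 39 (46.2%, beside 33.0%) with none higher (median -0.48; limma had 19 and 0 at an unadjusted p under 0.05, and edgeR called 20 and 0). In WT 26 were higher and none lower (31 and 0 at an unadjusted p under 0.05 in limma). Hoxc11 had 4.83, 4.33 and 4.69 and then 1.34, 1.2 and 0.970 (-1.90 ± 0.24 (SE), limma adjusted p = 8.66e-09), and Hoxc12 changed by -1.51. On the spike-in scale the medians of these lists were 0.03 and -0.0021, below the 0.50 of all genes. The Hox genes are neighbours within their clusters, so they do not count as independent.

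Many genes of the chemosensory receptor families, which lie in clustered arrays, rose. Of 1110 odorant receptor genes tested (1154 in the table), 396 rose (35.7%) and 10 fell (median 0.50), and of 260 vomeronasal receptor genes (354 in the table) 177 rose (68.1%) and 2 fell, where 21.7% of all genes rose and 19.9% fell. WT had 7 higher and 275 lower, and 1 and 92, where 15.1% of all genes rose and 17% fell in WT. The median changes of odorant and vomeronasal genes were -0.16 and -0.13 in TKO, and 0.30 and 0.30 in LBRKO. The count of odorant rises was 227 under edgeR, which called 9987 of 70381 genes higher, and 249 without naive replicate 1. With a pseudocount of 1 median 6 odorant genes were called lower. On the spike-in scale 676 odorant and 238 vomeronasal genes were called higher and none lower, beside 33% and 2.53% of all genes. Median ranks per kb in QKO naive and EpiLC libraries were percentiles 20.2 and 19.9 for odorant and 16.5 and 20.2 for vomeronasal genes. Genes left out had low values in all libraries, and reads in these families may be shared among copies.

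The stage change of QKO differed from that of WT at 32221 genes (45.8%), 17458 with the higher change in QKO (24.8%) and 14763 with the lower (21%). Division by the mean gene turned this balance to 13276 and 16787, and edgeR gave 13609 and 16766. Spike-in values gave a balance of 15391 higher (21.9%) and 5438 lower (7.73%), 29.6% in all. Of the 14015 genes that fell in QKO, 5195 rose in WT (37.1% of the former and 48.8% of the genes that rose in WT). Of the 15276 that rose in QKO, 4552 fell in WT (29.8% and 38.0%). Genes that fell in both numbered 1749 (14.6% of the genes that fell in WT) and those that rose in both 855 (8.04% of the genes that rose in WT). Over all genes, 19.9% fell and 21.7% rose in QKO, and 17% fell and 15.1% rose in WT. Overlaps in the same direction thus lay below the shares of all genes, and overlaps in opposite directions above them. Across genes the changes had a Pearson's r of -0.30 (n = 70381 genes, which share libraries and base composition).

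Among genes of at least 5 kb called without overlap between stages, and at most 1 per 500 kb, the one with the largest difference in the lower direction was Mlec (ENSMUSG00000048578, chr5:115281039-115296551). Its naive libraries had 25.2, 18.5 and 23.1 in QKO and a mean of 1.96 ± 0.832 in WT (SD, n = 3), and its EpiLC libraries 6.49, 6.36 and 5.6 and 3.81 ± 0.796. The QKO signal was far above WT in naive cells and nearer to it in EpiLCs, and the changes differed by -2.82 ± 0.28 (SE), limma adjusted p = 1.54e-11. Tlcd1 (ENSMUSG00000019437, chr11:78067537-78073335) followed with -2.81, then Spns1, a lysosomal transporter gene (-2.68), Frmd8os, an antisense RNA gene that can share reads with its neighbour (-2.67), Ulk1, the kinase that starts autophagy (-2.67), and Zbtb7b (-2.62). Ulk1 had 41.1, 25.9 and 35.8 in QKO naive and 9.48, 10.9 and 8.41 in QKO EpiLC libraries, and 3.21 ± 0.411 and 5.89 ± 0.376 in WT.

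In the other direction Or52n2b led (ENSMUSG00000056782, chr7:104563949-104570689, difference 2.13 ± 0.31 (SE), limma adjusted p = 1.66e-07). The only gene of the 6 named here outside the Or and SSX families was Pde3b (ENSMUSG00000030671, chr7:114013685-114138486), a phosphodiesterase gene of insulin signalling. It had 10.3, 14.2 and 12.1 in QKO naive and 23.6, 24.2 and 24.7 in QKO EpiLC libraries and fell in WT from 59.0 ± 9.99 to 32.2 ± 5.09, so that the lines stood closer together after the transition (difference 1.86 ± 0.17 (SE), limma adjusted p = 3.04e-12). Ssxb6, Or5ak22, Or4n4b and Or2ag1b made up the rest, at 1.95, 1.99, 1.95 and 1.87. Or2ag1b, with 0.82 in QKO, lost the call of its QKO change without naive replicate 1 (adjusted p = 0.171) or EpiLC replicate 2 (0.0521).

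The QKO change differed from that of TKO, the line from which QKO was made, at 18737 genes (26.6%) and from that of LBRKO at 11631 (16.5%). In the first comparison 8551 changes were higher (12.1%) and 10186 lower (14.5%) in QKO, and in the second 5504 (7.82%) and 6127 (8.71%), where the higher count was 3663 without EpiLC replicate 3. With spike-in values the second comparison had 5129 higher (7.29%) and 273 lower (0.388%), 7.68% in all. Pearson's r across the 70381 genes was 0.27 with TKO and 0.40 with LBRKO. Of the genes that fell in QKO, 21.4% also fell in TKO and 27.1% in LBRKO (42.0% and 53.7% of the genes that fell there). Backgrounds in those lines were 10.1% and 10% lower. At Mylpf the changes were -0.95 in TKO and -0.49 in LBRKO, and at Cd9 -0.84 and -0.58, beside -1.89 in QKO. At Fgf5 they were 0.69 and 0.85. On the spike-in scale the QKO and TKO changes differed at 951 genes (1.35%), with 120 higher (0.171%) and 831 lower (1.18%) in QKO, and all TKO genes had a median change of 0.53 beside 0.50 in QKO. Over the families of transposable elements (TEs), the relative QKO change differed from that of TKO at 546 of 1102 (49.5%), 298 higher (27%) and 248 lower (22.5%), and from that of LBRKO at 314 (28.5%), 74 higher (6.72%) and 240 lower (21.8%). Across these families Pearson's r with the QKO change was 0.39 for TKO and 0.64 for LBRKO. No TE family was called different between QKO and TKO on the spike-in scale (limma; 5 families at an unadjusted p under 0.05).

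Transposable elements divided by class. Values are means over all copies of a family, divided by the library's median family, and 1102 of 1225 families were tested. The bin width behind them is uncertain, so a copy's value may include its surroundings. limma called 691 (62.7%), 297 higher in EpiLCs (27%) and 394 lower (35.8%). SINEs, short elements that copy themselves with LINE enzymes and lie in gene-rich DNA, fell in 33 of 34 families with none higher (median -0.39; unadjusted p under 0.05, 33 and 0), where in WT 33 rose and none fell (backgrounds 15.2% and 14.2%, 29.3% in either direction). The SINE median was -0.12 in LBRKO, the direction of QKO, and 0.01 in TKO. LINEs, autonomous elements common in AT-rich heterochromatin, rose in 103 of 180 families and fell in 28. The young L1Md families rose in 24 of 25 (median 0.28) and the older Lx families in 19 of 20, while L2 fell in 9 of 13. In LBRKO the L1Md and Lx medians were 0.17 and 0.11, and in TKO -0.09 and -0.16. Division by the mean family left 15 families higher and 340 lower in all, since it shifted the median change from -0.01 to -0.13, and the call of rises therefore depends on the scaling.

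B1_Mm, a SINE of the Alu group with 42468 copies, had 1.59, 1.37 and 1.5 in the naive and 1.08, 1.08 and 1.04 in the EpiLC libraries (-0.44 ± 0.03 (SE), limma adjusted p = 1.17e-08). B2_Mm2 had 1.67, 1.45 and 1.58 in the naive and 1.17, 1.18 and 1.15 in the EpiLC libraries (-0.39, adjusted p = 5.27e-08). Both stood above the median family in naive cells and near it in EpiLCs, without overlap. The largest rises called without overlap among families of at least 100 copies were L1MdTf_III, with 1.94, 2.03 and 2.00 in the naive and 2.67, 2.54 and 2.63 in the EpiLC libraries (0.37 ± 0.05 (SE), limma adjusted p = 2.27e-06), L1MdF_II (0.36), L1MdF_III (0.35) and L1MdF_V (0.34), together with the LTR families ERVB4_3-LTR_MM (0.35) and IAPEy-int (0.35). Of these, L1MdTf_III, L1MdF_II and IAPEy-int kept their call when libraries were divided by the mean family. L1MdA_I, a young L1 subfamily, was at 0.06 (limma adjusted p = 0.453; -0.07 with the mean family), IAPEz-int at 0.18 (0.125) and MT2_Mm at -6.37e-04 (0.987), none called. A fit of only the libraries compared called IAPEz-int (adjusted p = 0.0227).

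LTR families held the largest falls. RLTR13B2, with 312 copies, had 3.58, 2.81 and 3.38 in the naive and 1.49, 1.38 and 1.41 in the EpiLC libraries (-1.13 ± 0.07 (SE), limma adjusted p = 1.89e-09), and it fell in WT too, by 0.58 on the log2 scale (limma adjusted p = 9.45e-05), and it changed by -1.41 in TKO (adjusted p = 1.10e-10). WT IGG at this family changed by -0.40 (adjusted p = 0.018), and its part was not tested. LTRIS3 and LTRIS2 followed with -0.94 and -0.85, then RMER16B2 (-0.75), the DNA transposon FordPrefect (-0.74) and LTRIS4A (-0.66). At FordPrefect, 1% of the copies held 89.9% of the naive signal, the naive mean of 8.71 was below that of WT IGG (10.6, with a change of -0.71, adjusted p = 0.465), and more of its 270 copies lay above in EpiLCs (39) than below (21). LTRIS3 had 2.92, 2.39 and 2.82 in the naive and 1.38, 1.38 and 1.34 in the EpiLC libraries, and its WT change was -0.11 (limma adjusted p = 0.160). RLTR13D6 changed by -0.49 in QKO, -0.47 in WT and -1.06 in TKO. Over classes, 256 of 590 LTR families fell and 109 rose. MERVL-int, an element active in the early embryo, was called at 0.11 (adjusted p = 0.0276), but not without naive replicate 2 (0.119), EpiLC replicate 1 (0.0677) or EpiLC replicate 3 (0.0636). Reads of near-identical copies cannot be placed with certainty.

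**Figure D4:**
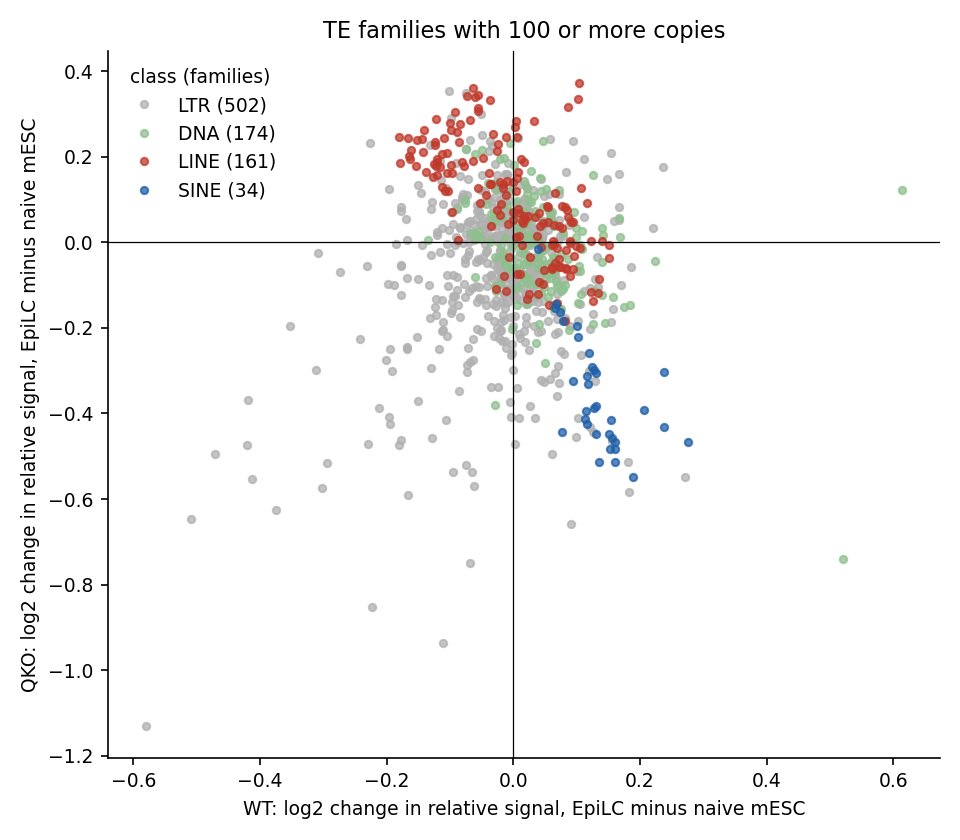
Log2 change of relative LAP2B signal from naive mESCs to EpiLCs in QKO (y axis) against WT (x axis) for TE families with 100 or more copies, 1 point per family, coloured by class. SINE families lie below 0 in QKO and right of 0 in WT, and the lowest point is RLTR13B2 at -1.13.

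Single copies of SINEs and LINEs leaned as their families did, while LTR and DNA copies stood nearer to the shares of all copies. Of 3793386 copies, the 3 EpiLC values lay above the 3 naive values at 12.0% and below them at 13.9%. Among SINE copies these shares were 8.82% and 21.4%, among LINE copies 16% and 5.88%, among LTR copies 12.6% and 11.6%, and among DNA transposon copies 13.7% and 10.3%. The stage change of QKO differed from that of WT at 608 families (55.2%), higher in QKO at 261 (23.7%) and lower at 347 (31.5%). It was higher at 24 of 25 L1Md families and lower at all 34 SINE families. With the mean family as divisor, which moved the median difference to 0.20, these totals became 306 and 35. On the spike-in scale 638 families had the higher change in QKO (57.9%) and none the lower (limma; 799 and 0 at an unadjusted p under 0.05), so no SINE family was called lower there. On the spike-in scale 881 families rose in QKO (79.9%) and none fell (limma; 910 and 1 at an unadjusted p under 0.05), with 280 rises without EpiLC replicate 1 and 270 without naive replicate 2.

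Per library, the patterns can be put into single numbers. The lamina contrast, the log2 ratio of signal per bin in the quartile of genes with most LMNB1 in WT of the same stage to the quartile with least, was -0.813, -0.628 and -0.750 in naive libraries 1, 2 and 3 and 0.157, 0.133 and 0.165 in the EpiLC libraries. LAP2B thus stood lower over LMNB1-rich genes than over LMNB1-poor ones in every naive QKO library and slightly higher in every EpiLC library. The difference of 0.88 has an exact permutation p of 0.1 (two-sided, 3 against 3), the smallest this design allows. The WT change was -0.78 on this log2 scale, and the IGG background, at 0.27 ± 0.20 and 0.26 ± 0.05 (SD, n = 3), changed by -0.013. All 3 EpiLC QKO values lay below the IGG values of EpiLCs and far below WT, at 0.90 ± 0.17. The stage changes of QKO and WT differed by 1.66 (exact permutation, two-sided, p = 0.005, the lowest the design can give, adjusted p = 0.0125 over 5 measures). That permutation shuffled stage labels within each line, so its p is against no stage change in either line. It does not test for equal changes, and is lowest where the lines separate in opposite directions, as here.

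The LINE to SINE ratio, the log2 ratio of mean signal over LINE copies to SINE copies, was -0.656, -0.406 and -0.577 in the naive and -0.0140, -0.0305 and 0.0334 in the EpiLC QKO libraries. It was near 0 in the later stage, so that in EpiLCs the copies of both classes carried near-equal mean signal, while WT libraries stayed above 0, at 0.71 ± 0.08 and 0.51 ± 0.08 (SD, n = 3). TKO had 0.26 ± 0.05 and 0.16 ± 0.02, LBRKO -0.10 ± 0.06 and 0.13 ± 0.01, and IGG 0.25 ± 0.07 and 0.14 ± 0.04. The QKO change of 0.54 (exact p = 0.1) differed from the WT change by 0.75 (exact permutation p = 0.005, adjusted p = 0.0125, with the same limit as for the lamina contrast).

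Unevenness, the SD across genes of log2 signal per bin, was 1.22, 0.973 and 1.17 in the naive and 0.710, 0.690 and 0.641 in the EpiLC libraries of QKO. The naive values were above the means of all other groups and the EpiLC values stood beside means of 0.675 ± 0.0130 in LBRKO and 0.624 ± 0.0831 in IGG (SD, n = 3). The QKO difference, -0.44, had an exact permutation p of 0.1, and its difference from the WT change, -0.25, did not pass the test (exact permutation p = 0.29, adjusted p = 0.29). Where both lines move the same way, as here, that permutation can hardly show unequal changes. QKO profiles correlated with WT LAP2B profiles across genes at a median rho of -0.125 in naive cells and 0.373 in EpiLCs. With TKO the medians were 0.575 and 0.720, and with WT IGG 0.513 and 0.715. With LBRKO they went down, from 0.576 to 0.495. These medians are over 9 pairs of libraries. IGG was profiled in WT cells only, and its part in the QKO values was not tested.

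**Figure D5:**
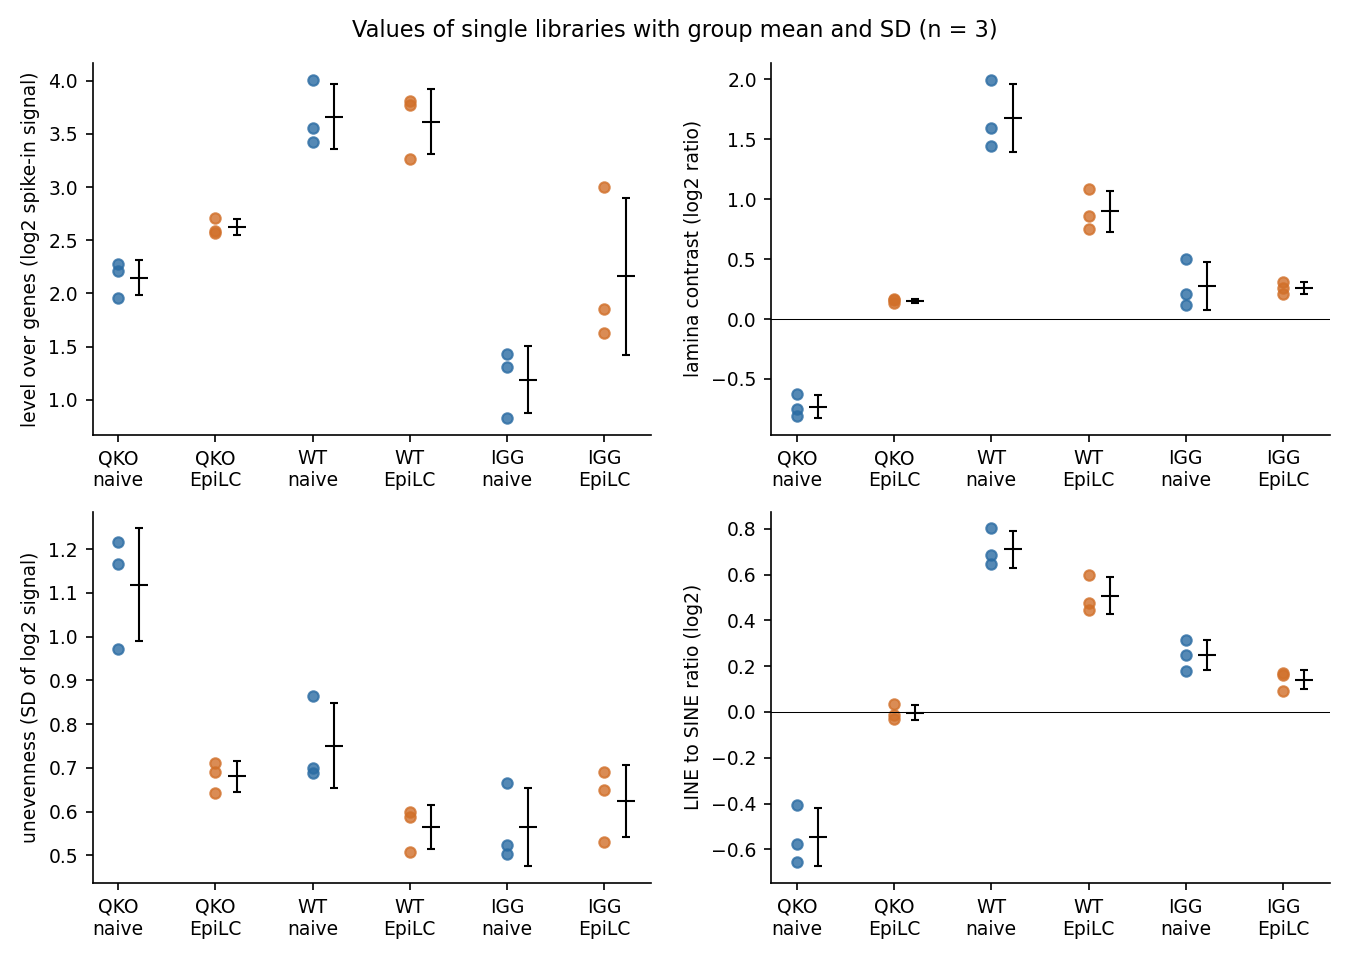
Single-value measures of QKO LAP2B, WT LAP2B and WT IGG libraries, 1 point per library with the group mean and SD (n = 3): level over genes (log2 of the mean spike-in signal), lamina contrast, unevenness and LINE to SINE ratio. The lamina contrast of QKO moves from below 0 to 0.157, 0.133 and 0.165, and its LINE to SINE ratio from below 0 to near 0.

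The level of the deposited spike-in values was higher in QKO EpiLCs, as it was in the IGG background. The level over genes on the spike-in scale, the log2 of the mean value, was 2.27, 1.96 and 2.21 in the naive and 2.71, 2.57 and 2.59 in the EpiLC libraries, which did not overlap (difference 0.47, 1.39-fold, exact permutation p = 0.1). The IGG level of WT was higher by 0.97 over the same step, and WT LAP2B changed by -0.048. LAP2B of the parent line TKO changed by 0.55, more than in QKO, and that of LBRKO by -0.034. The difference between the QKO and WT changes, 0.52, did not pass the test (exact permutation p = 0.105, adjusted p = 0.175). On this scale limma called no gene between the IGG stages, while 24473 were higher and 3 lower at an unadjusted p under 0.05. Over TE families the QKO level was higher by 0.82, that of TKO by 0.72, that of LBRKO by 0.29, that of WT by 0.23 and that of IGG by 1.12. The QKO EpiLC level of 2.62 ± 0.07 stood beside 2.16 ± 0.74 for IGG (SD, n = 3), whose replicate 2 lay above all QKO libraries.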

How the data were processed

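LAP2B CUT&RUN was measured in 3 QKO libraries per stage, set against WT, TKO and LBRKO libraries and WT LMNB1 and IGG. Per the study's methods and processing notes, the authors aligned reads with Bowtie2 2.3.5.1 to mm39, filtered them with SAMtools 1.10 (duplicates, contigs and mitochondrial reads removed), and made coverage in bins with deepTools. The deposited gene and TE values are this coverage signal, RPKM scaled by the authors with a factor from yeast spike-in DNA. That gene values are sums over the 1 kb bins touched was inferred from the values; the methods give wider bins for TEs, so the TE bin width is uncertain. Values gave whole reads on division by the value of 1 read (tolerance 0.05), 22809969 to 36816402 per QKO library, which limits precision to counting error at low genes.

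Values were divided by the library's median feature (relative scale) or kept as deposited (spike-in scale), a pseudocount of 0.1 of the table median was added, and log2 values of all 24 LAP2B libraries were fitted in limma 3.58.1 (R 4.3.3) with 8 group means. The lowest 10% of genes by mean were left out, so that 70381 of 78202 genes and 1102 of 1225 TE families were tested. Adjusted p-values are Benjamini-Hochberg over all features tested. IGG and LMNB1 had fits of their own. Single values were tested by exact permutation (two-sided, 20 assignments of 3 against 3, and 400 for QKO against WT, with stage labels shuffled within each line). Genes were placed on GRCm39 by identifier (78131 of 78202).

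Named genes were the 12 largest called changes each way and the 6 largest differences from WT each way, among genes of at least 5 kb with a symbol, without overlap between stages, and at most 1 per 500 kb, with genes from the lists; TE families had at least 100 copies. The members and lists were chosen with earlier results of these data known. Same-numbered samples were checked for pairing. Alternatives were edgeR 4.0.16 on recovered reads, the mean feature as divisor, other pseudocounts, no filter, long genes, only the libraries compared, a replicate block, and each library left out. For the spike-in scale, the factor was also applied to reads in place of RPKM. The limma fit was tested on simulated data. H3K9me3 libraries were not analysed here. The step that joined bins to genes is not given in the sources used here.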

Additional observations from a re-analysis of the deposited data

Results flagged for a closer look

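Each result here is a stage change that differed between QKO and another genotype. The test was an interaction in limma (adjusted p under 0.05) or, for single values, an exact permutation. The permutation shuffled stage labels within each line, so its p is against no stage change in either line and not against equal changes. The changes of QKO and WT differed by 1.66 in lamina contrast and by 0.75 in the LINE to SINE ratio. Gene by gene, 17458 changes were higher in QKO than in WT and 14763 lower, and among TE families 261 and 347. Against TKO the counts were 8551 and 10186, and against LBRKO 5504 and 6127.

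The values that follow are QKO change minus WT change on the log2 scale. Among the genes with the largest rises in QKO or the largest differences upward they were Ssxb6 (1.95), Prl5a1 (1.06), Fgf5 (1.36), Or14n1-ps1 (1.77), Gpr65 (1.53), Dbx2 (1.02), Or5ak22 (1.99), Vmn1r58 (1.59), Or4n4b (1.95), Vmn2r116 (1.41), Aadacl2fm1 (1.78), Abcd2 (1.24), Or52n2b (2.13), Or2ag1b (1.87) and Pde3b (1.86). Among those with the largest falls or differences downward they were Mylpf (-2.49), Hspb8 (-2.11), Manbal (-2.11), Platr29 (-2.05), Platr32 (-1.96), Cd9 (-1.86), Mllt6 (-2.53), Mlec (-2.82), Slc30a2 (-2.10), Zbtb7b (-2.62), Capns1 (-2.20), Tlcd1 (-2.81), Spns1 (-2.68), Frmd8os (-2.67) and Ulk1 (-2.67).

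Of the pluripotency and early lineage genes, the change was lower in QKO at Nanog (-1.01), Tbx3 (-2.0), Fgf4 (-1.47), Sall4 (-1.70), Pou5f1 (-1.99), Nodal (-2.20), Zic2 (-1.25), Tgfb1 (-1.77), Cdx1 (-0.86) and Pdgfra (-0.46). It was higher at Lef1 (0.74), Lrp2 (1.12), Fgfr2 (0.28) and Wnt5a (0.55). Of the silencing, RNA sensing and nuclear envelope genes it was lower at Dnmt3l (-0.59), Setdb1 (-1.52), Uhrf1 (-1.80), Irf3 (-1.71), Irf7 (-1.08), Lbr (-0.46), Lmna (-1.99), Lmnb2 (-1.83) and Prr14 (-2.28), and higher at Mael (0.89), Ifih1 (1.42) and Syne1 (1.08). The neuronal adhesion genes Ntm (0.92) and Ctnna2 (1.11) were higher, and Rpl23 (-2.80), Krt8 (-1.53), Hoxc11 (-2.13) and Hoxc12 (-2.26) lower.

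Some of these calls were not stable. The Wnt5a difference lost its call with the mean gene as divisor (adjusted p = 0.202), under edgeR (0.136), with only the libraries compared (0.0606), with a pseudocount of 0.01 of the median (0.0510), with no filter (0.0509) and without any of QKO naive replicates 1 and 3, QKO EpiLC replicates 2 and 3, WT naive replicates 1 and 3 or any WT EpiLC replicate (0.0572 to 0.168). Fgfr2 lost its call with the mean gene (0.240), under edgeR (0.231) and without QKO EpiLC replicate 3 (0.0531). Lbr lost it with only the libraries compared (0.0581), a pseudocount of 0.01 of the median (0.0510), no filter (0.0511) or the replicate block (0.0530), and without any of QKO naive or EpiLC replicates 1 and 3, WT naive replicates 1 and 2 or WT EpiLC replicates 2 and 3 (0.0564 to 0.168). Pdgfra lost it without any of QKO EpiLC replicate 1, QKO naive replicates 1 and 2, WT EpiLC replicates 2 and 3 or WT naive replicate 2 (0.0510 to 0.164). Prl5a1 lost it with a pseudocount of 1 median (0.0838) and without QKO EpiLC replicate 2 (0.0697), QKO naive replicate 3 (0.0662) or WT naive replicate 2 (0.125).

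Among TE families the QKO change was higher than the WT change at L1MdTf_III (0.27), L1MdF_II (0.42), L1MdF_III (0.40), L1MdF_V (0.41), L1MdA_II (0.27), L1MdTf_I (0.23), L1MdGf_I (0.28), IAPEy-int (0.42) and ERVB4_3-LTR_MM (0.45). It was lower at RLTR13B2 (-0.55), LTRIS3 (-0.83), LTRIS2 (-0.63), LTRIS4A (-0.75), RMER16B2 (-0.68), RLTR45-int (-0.15), FordPrefect (-1.26), B1_Mm (-0.52), B2_Mm2 (-0.60), L2a (-0.16) and MIR (-0.21). These values rest on division by the median family, and the sign at RLTR45-int, L2a and MIR turned with the mean family as divisor. That divisor also ended the call at RLTR13B2 (adjusted p = 0.0913). The call at L1MdTf_I was lost with only the libraries compared (0.0803) and without any of QKO EpiLC replicate 1, QKO naive replicate 2, WT EpiLC replicate 2 or WT naive replicates 1 and 3 (0.0507 to 0.0962), and that at RLTR45-int with only the libraries compared (0.0574) and without any of QKO naive replicate 1, WT EpiLC replicate 1 or WT naive replicate 2 (0.0521 to 0.0797). At FordPrefect 89.9% of the QKO naive signal lay in 1% of the copies, WT IGG stood at 10.6 beside 8.71 in QKO and changed by -0.71, and 39 copies lay above and 21 below in EpiLCs. The cause of these differences was not tested.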

How the results depend on the processing

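The 5 single-value measures kept their direction under all alternatives run, and their differences from WT their side of the threshold; their QKO changes could not reach an exact p under 0.1 in this design, so they could not change sides. With edgeR on recovered reads 9987 genes were higher in QKO EpiLCs, the values of Otx2, Gata6, Pdgfra and Fgfr2 turned to -0.18, -0.086, -0.079 and -0.050, and the primed list median to -0.16. With libraries divided by the mean feature, 15 TE families were higher in QKO and 35 had a lower change than in WT, QKO changes turned at L1MdA_I (-0.074), ERVB4_2-I_MM (-0.087) and MERVL-int (-0.017), and differences from WT turned at RLTR45-int (0.078), L2a (0.054) and MIR (0.0017). Genes of at least 10 kb, a smaller set, gave 7184 lower, 11264 and 7361 for QKO against WT, and 14999 and 954 on the spike-in scale. On that scale, fitting only the QKO libraries gave 35958 genes higher and 4562 lower and 2 TE families lower. A pseudocount of 1 median gave 12842 genes and 1 TE family higher there, and one of 0.01 of the median 1 TE family lower. The spike-in factor applied to reads gave 34438 genes higher and 1630 lower, and 1050 TE families higher. The cause was not tested.

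Leaving out 1 library at a time gave 611 to 2342 genes lower on the spike-in scale, 270 to 785 TE families higher there, and 3663 to 7274 genes higher in QKO than in LBRKO (main count 5504). It gave -0.16 to 0.17 at Otx2, -0.085 to 0.12 for the primed list median, -0.028 to 0.013 at MT2_Mm and -0.0055 to 0.11 at L1MdA_I. A fit with the replicate block gave 15266 higher and 13993 lower in QKO, and of the named results it changed the call of Lbr against WT alone (adjusted p = 0.0530), which other alternatives lost as well. Same-numbered QKO samples did not deviate together (correlations 0.06, -0.07 and -0.05), so no pairing was seen. Naive replicate 2 and EpiLC replicate 3 had 0.15, so the check is coarse and cannot exclude a shared experiment. Depth limits genes with few reads, such as Ssxb6 with 6 in 1 library. A single QKO clone and IGG from WT cells only limit what the stage change can be compared with.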

Other observations

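Further gene families had their own counts, beside 21.7% of all genes called higher and 19.9% lower in QKO. Of 60 tested Pramel genes, a family active in germ cells and early embryos, 22 rose (36.7%) and 7 fell (11.7%) by limma (median 0.42). In WT 0 rose and 31 fell (0 and 39 at an unadjusted p under 0.05), where 15.1% and 17% of all genes did. The median Pramel rank per kb in QKO was percentile 6.43 in naive and 6.90 in EpiLC libraries. The QKO rises numbered 12 without naive replicate 1 or EpiLC replicate 3, 14 without naive replicate 3 and 11 with a pseudocount of 1 median, and edgeR called 14 higher and 11 lower. Keratins and keratin-associated proteins, structural proteins of epithelia and hair, had 22 of 151 higher (14.6%, under the share of all genes) and 1 lower, which was Krt8 (-0.82), a keratin of simple epithelia. The keratin rises numbered 9 without naive replicate 1, 13 without EpiLC replicate 1, 14 without EpiLC replicate 3 and 11 under edgeR. Of 62 replication-dependent histone genes 21 passed the filter on low values, with 2 higher (9.52%) and 3 lower (14.3%), both under the shares of all genes, and the lower count was 0 without naive replicate 1 or 3 in limma, 6 with only the libraries compared, 7 under edgeR and 9 with a pseudocount of 1 median. Copies within these families are alike, so their reads may be shared.

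Chromosomes differed in their median QKO change, from -0.23 on chromosome 11 (4290 genes) to 0.27 on chromosome 3 (3748 genes) and 0.44 on chromosome Y (912 genes). Chromosome 8, of which the TKO parent line carried an extra copy by karyotype, had a median of 0.18. Copy number in the QKO libraries was not tested.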
